A study of Mus musculus with 4 samples.

Results

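Secreted antagonists of bone morphogenetic proteins (BMPs) were followed across whole mouse embryos with and without Ddx6, which encodes an RNA helicase of mRNA decay and translational repression. The members are the 9 genes Cer1, Chrd, Nog, Grem1, Bmper, Chrdl2, Htra1, Fst and Nbl1, picked by symbol from the 24421 genes of a table of RNA sequencing counts. All embryos were of the ICR strain, and 4 libraries were compared: 1 of E7.5 wild type (embryonic day 7.5, E7.5 WT in the plots), 1 of E8.5 wild type (E8.5 WT) and 2 of E8.5 Ddx6 -/- embryos (KO1 and KO2). The KO allele lacked a floxed exon that CAG-Cre, a Cre active in all tissues, had removed. Per the study's text, both KO libraries were pools of embryos. KO1 mixed embryos from before and after head-fold formation, whereas KO2 held only embryos from before it, so the KO replicates differed in morphological stage as well as in embryos.

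Each library held between 8198402 (KO1) and 12562640 (E8.5 wild type) counted reads. The targeted gene Ddx6 had 2943 reads in E7.5 wild type, 5715 in E8.5 wild type, 706 in KO1 and 929 in KO2. The libraries, all labelled as embryo, held transcripts of decidua and trophoblast to different extents, with 537 CPM of 6 trophoblast markers in KO2 against 19.0 to 59.8 CPM elsewhere, and results that rest on KO2 are also given for KO1 alone. Levels are CPM, counts scaled to a common library total after TMM normalization, and a change is a difference of log2 CPM between 2 libraries. A gene was called higher or lower where that difference passed 1 on the log2 scale, with no p-value, since each wild-type stage had 1 library. In brackets stands the exact 95% interval of each change, which covers counting error only and no spread between embryos or libraries. PCR copies could not be told apart from separate molecules, so it can be too narrow even for that. The share of all 14393 genes tested that met the same rule is given as background beside the counts.

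BMPs are secreted ligands that bind type I and type II receptors and signal through SMAD1, SMAD5 and SMAD9 together with SMAD4. Secreted antagonists bind the ligands outside the cell and keep them from their receptors, which sets where in the embryo the signal is read. In the gastrula, such proteins come from the anterior visceral endoderm, the node and the axial mesoderm, and they protect the anterior embryo and the future neural plate from BMP signals. Several of them bind Nodal or activin as well.

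All 9 antagonists passed the minimum of 10 reads in at least 1 library, although Chrdl2 did so only through KO2. Of the 9, 5 were higher in KO1 and KO2 than in E8.5 wild type (Cer1, Chrd, Bmper, Htra1 and Nbl1), against 3.44% of all genes. Grem1 alone was lower in both, against 1.79%. Bmper alone passed the threshold above both wild-type libraries in both KO libraries, against 0.75%. The study itself plotted negative regulators of BMP signaling from these libraries, so the direction of the list is not independent evidence. In whole embryos, fewer cells of a type and less RNA per cell cannot be told apart.

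**Figure D1:**
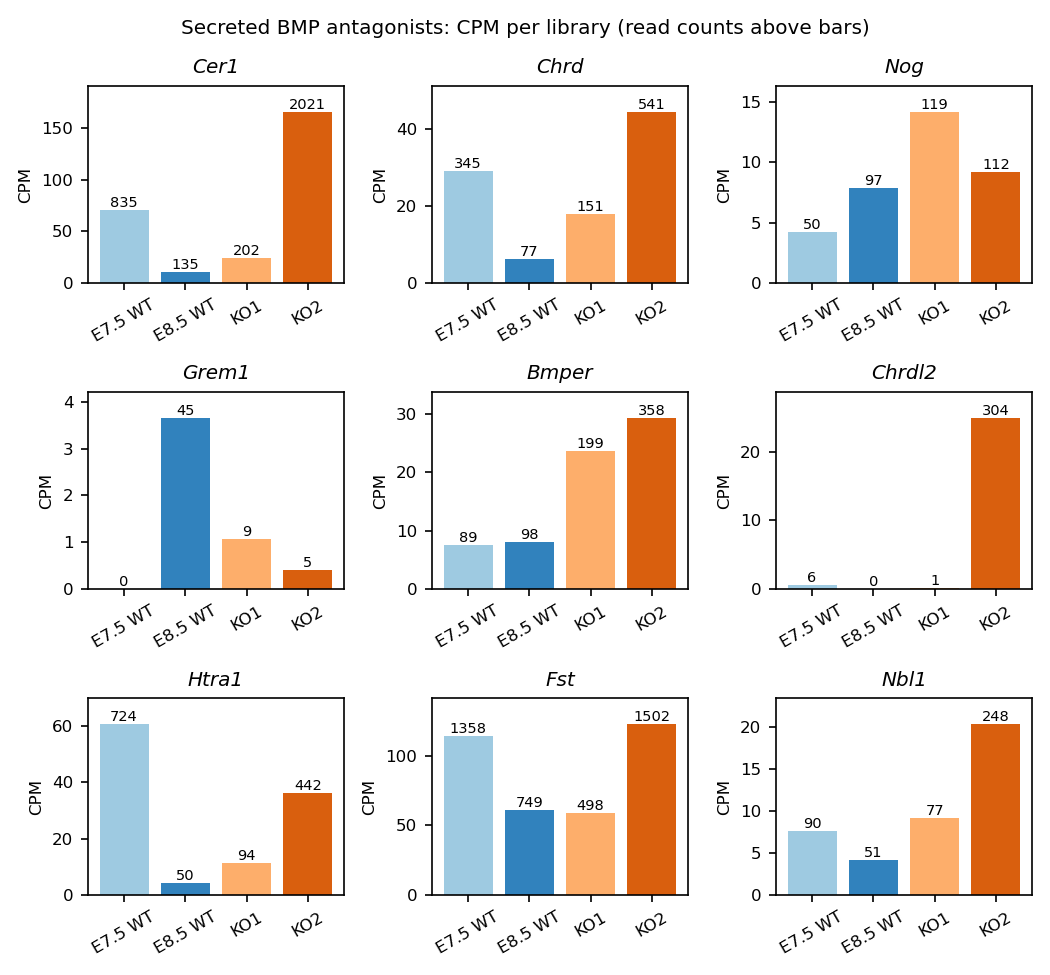
Level of each secreted BMP antagonist in CPM (linear axis from 0, scaled per panel) in the E7.5 wild type, E8.5 wild type, KO1 and KO2 libraries, 1 bar per library, with the read count printed above it. The bars of Bmper and Nog in both KO libraries lay above both wild-type bars, but only Bmper passed the threshold against both stages. The excess of Nog in KO2 over E8.5 wild type was within counting error. Cer1, Chrd and Htra1 were lowest in E8.5 wild type with KO1 below E7.5 wild type, and nearly all Chrdl2 reads (304) were in KO2.

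The wild-type libraries separated the antagonists by stage. Cer1, Chrd and Htra1 were higher in E7.5 wild type than in E8.5 wild type, by 2.66 (2.41 to 2.95), 2.18 (1.85 to 2.59) and 3.85 (3.49 to 4.35). Counting Chrdl2, which had 6 reads in E7.5 wild type and 0 in E8.5 wild type, 4 of 9 were higher at E7.5, against 7.82% of all genes. Grem1 was the 1 lower, against 12.2%. The change from E8.5 wild type to E7.5 wild type was -0.88 for Nog, -0.09 for Bmper, 0.90 for Fst and 0.84 for Nbl1, all within the threshold. Each stage had 1 library, so these differences could not be set against a spread between wild-type samples.

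Bmper encodes a chordin-related protein that binds BMP4 and can limit or aid its signal. It had 89 reads in E7.5 wild type, 98 in E8.5 wild type, 199 in KO1 and 358 in KO2, that is 7.48, 7.97, 23.7 and 29.4 CPM. Both KO libraries lay above both wild-type libraries by more than the threshold, against 0.75% of all genes. Against E8.5 wild type the changes were 1.55 (1.22 to 1.94) in KO1 and 1.86 (1.56 to 2.22) in KO2, a mean of 1.70 ± 0.22 (SD, n = 2). Measured from E7.5 wild type they were 1.64 (1.30 to 2.04) and 1.95 (1.63 to 2.32). The wild-type stages differed by only -0.09 (-0.52 to 0.34). Bmper also differed least between the KO libraries among the 9, by 0.31 (0.06 to 0.57).

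The Bmper promoter is shown because this antagonist did not follow the wild-type stage. The sequence is RefSeq's (GRCm38.p6, chr9:23222826-23223125, plus strand), from 250 bases before the start of transcription to 50 after it. Capitals would mark a match on either strand to GGCGCC or CAGACA, both bound by SMAD proteins, to AATNNACA of FOXH1, or to AGGTGTGA of T-box factors. This window held none of them. The letters GGCGCC were found in 20.8% of 13893 promoters of the genes tested, CAGACA in 16.4%, AATNNACA in 7.14% and AGGTGTGA in 0.871%.
Bmper promoter: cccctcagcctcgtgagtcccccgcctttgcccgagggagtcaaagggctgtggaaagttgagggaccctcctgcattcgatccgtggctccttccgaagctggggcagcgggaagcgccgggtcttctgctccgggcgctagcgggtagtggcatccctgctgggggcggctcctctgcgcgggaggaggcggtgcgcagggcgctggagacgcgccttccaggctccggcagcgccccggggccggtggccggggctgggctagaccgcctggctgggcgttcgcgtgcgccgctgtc

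Cer1 encodes Cerberus-like 1, which binds BMPs and Nodal and is made by the anterior visceral endoderm and anterior definitive endoderm. It had 835 reads in E7.5 wild type, 135 in E8.5 wild type, 202 in KO1 and 2021 in KO2, at 70.2, 10.98, 24.1 and 166 CPM. KO1 lay between the wild-type stages, while KO2 was the highest library. Relative to E8.5 wild type the changes were 1.12 (0.81 to 1.46) in KO1 and 3.89 (3.66 to 4.18) in KO2. Relative to E7.5 wild type, the change was -1.54 (-1.77 to -1.32) in KO1 and 1.24 (1.12 to 1.36) in KO2. The KO libraries therefore fell on opposite sides of the E7.5 level, and their mean change of 2.51 ± 1.96 (SD, n = 2) against E8.5 wild type averages over a difference of 2.78 between them.

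Chrd encodes chordin, an antagonist secreted by the node and its derivatives. Its reads numbered 345 in E7.5 wild type, 77 in E8.5 wild type, 151 in KO1 and 541 in KO2, at 29.0, 6.27, 18.0 and 44.4 CPM. As with Cer1, KO1 lay between the wild-type stages and KO2 lay above both. The changes against E8.5 wild type were 1.49 (1.12 to 1.94) and 2.79 (2.48 to 3.19). The changes against E7.5 wild type were -0.68 (-0.98 to -0.41) in KO1 and 0.61 (0.42 to 0.81) in KO2, neither past the threshold. Chrd therefore exceeded E8.5 wild type in both KO libraries but did not pass the threshold above E7.5 wild type in either. An exon of Chrd overlaps Thpo on the other strand, and reads were counted by strand.

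The promoters of Cer1 and Chrd are shown because these antagonists had the same order of libraries. They come from RefSeq (GRCm38.p6) and have the same window as that of Bmper, with chr4:82885102-82885401, minus strand, for Cer1 and chr16:20732877-20733176, plus strand, for Chrd. Capitals mark the matches. Cer1 held 1 match to CAGACA. Chrd held 1 match to GGCGCC and, just past its start of transcription, 1 to CAGACA on the other strand. Of the other members with a promoter sequence, Grem1 and Nbl1 each held 1 GGCGCC and Htra1 held no match. These matches describe letters and are not evidence of binding.
Cer1 promoter: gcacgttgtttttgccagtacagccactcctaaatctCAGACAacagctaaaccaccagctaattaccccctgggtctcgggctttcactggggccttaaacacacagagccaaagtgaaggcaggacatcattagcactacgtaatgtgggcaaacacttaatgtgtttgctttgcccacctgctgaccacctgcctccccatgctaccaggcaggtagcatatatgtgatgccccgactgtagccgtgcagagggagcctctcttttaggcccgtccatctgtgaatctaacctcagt
Chrd promoter: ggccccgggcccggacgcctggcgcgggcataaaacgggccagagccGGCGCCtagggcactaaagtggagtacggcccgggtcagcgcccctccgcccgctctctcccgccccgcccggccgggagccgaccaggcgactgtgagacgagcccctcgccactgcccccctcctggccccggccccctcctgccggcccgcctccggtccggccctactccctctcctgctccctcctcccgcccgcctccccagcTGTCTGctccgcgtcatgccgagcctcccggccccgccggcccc

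Htra1 encodes a secreted serine protease that binds and inhibits members of the TGF-β family. It had 724 reads in E7.5 wild type, 50 in E8.5 wild type, 94 in KO1 and 442 in KO2, at 60.9, 4.07, 11.2 and 36.3 CPM. The wild-type stages differed by 3.85 (3.49 to 4.35), and both KO libraries lay between them. KO1 was higher than E8.5 wild type by 1.42 (0.95 to 1.99) and KO2 by 3.10 (2.73 to 3.61). From E7.5 wild type the changes were -2.42 (-2.77 to -2.13) and -0.74 (-0.92 to -0.57). Neither KO library reached the E7.5 level.

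Markers of decidua, the maternal tissue around the embryo, were set beside Htra1. The decidual prolactin gene Prl8a2 had 1318 reads in E7.5 wild type, 26 in E8.5 wild type, 64 in KO1 and 1433 in KO2, the same split of libraries as Htra1. The summed level of 6 decidua markers was 152 CPM in E7.5 wild type, 28.5 in E8.5 wild type, 19.5 in KO1 and 144 in KO2, with Prl3c1 at 0 in KO1. In KO1, where Htra1 was higher than in E8.5 wild type, the sum was lower, but the markers did not move together. From E8.5 wild type to KO1, Hoxa10 (13.0 to 2.62 CPM), Hoxa11 (5.86 to 1.07) and Igfbp1 (2.20 to 1.43) fell. The lower sum was carried by Hoxa10 and Hoxa11. Prl8a2 (2.12 to 7.62 CPM) and Pgr (5.21 to 6.79) rose. The intervals of Igfbp1 and Pgr included 0. Only Prl8a2 among those 6 was higher in KO1 and KO2 than in E8.5 wild type, against 3.44% of all genes. The part of decidual RNA in the Htra1 levels was not tested.

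Chrdl2 encodes chordin-like 2, which binds BMPs through chordin-type repeats. It had 6 reads in E7.5 wild type, 0 in E8.5 wild type, 1 in KO1 and 304 in KO2. The gene was thus read almost only in KO2, at 24.9 CPM. With E8.5 wild type at the floor of 3 reads, KO2 was 102-fold higher, and the exact interval began at a log2 change of 6.37. Against E7.5 wild type the ratio of CPM was 49.5-fold, with an exact interval of 4.49 to 7.09 on the log2 scale. The log2 change, shrunk for low counts, was 5.20. KO1 and E8.5 wild type were both at or under the floor, and no fold between them is given. The log2 change from KO1 to KO2 rests on 1 read in KO1, and its interval ran from 5.22 to 13.02.

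Trophoblast markers were set beside Chrdl2, and not all of them moved with it. Prl3d1, made by trophoblast giant cells, had 27 reads in E7.5 wild type, 1 in E8.5 wild type, 3 in KO1 and 4156 in KO2, and Prl2c2 had 3, 0, 4 and 1400. Plac1 was read in every library, with 323, 223, 230 and 939 reads in the same order. Ascl2 was highest in E7.5 wild type, with 358, 10, 11 and 54 reads. The 6 trophoblast markers summed to 59.8 CPM in E7.5 wild type, 19.0 in E8.5 wild type, 29.5 in KO1 and 537 in KO2, with Prl3b1 and Tpbpa at 0 in all 4 libraries. Of the 4 markers tested, 3 were above both wild-type libraries in KO2, against 3.67% of all genes, and 0 in KO1, against 1.88%. Prl2c2, among the 3, passed the minimum of reads only through KO2. The 3 markers of extraembryonic ectoderm did not share this order, with 185, 13.3, 17.03 and 30.9 CPM in the order E7.5 wild type, E8.5 wild type, KO1 and KO2. The part of trophoblast RNA in the Chrdl2 reads was not tested.

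**Figure D2:**
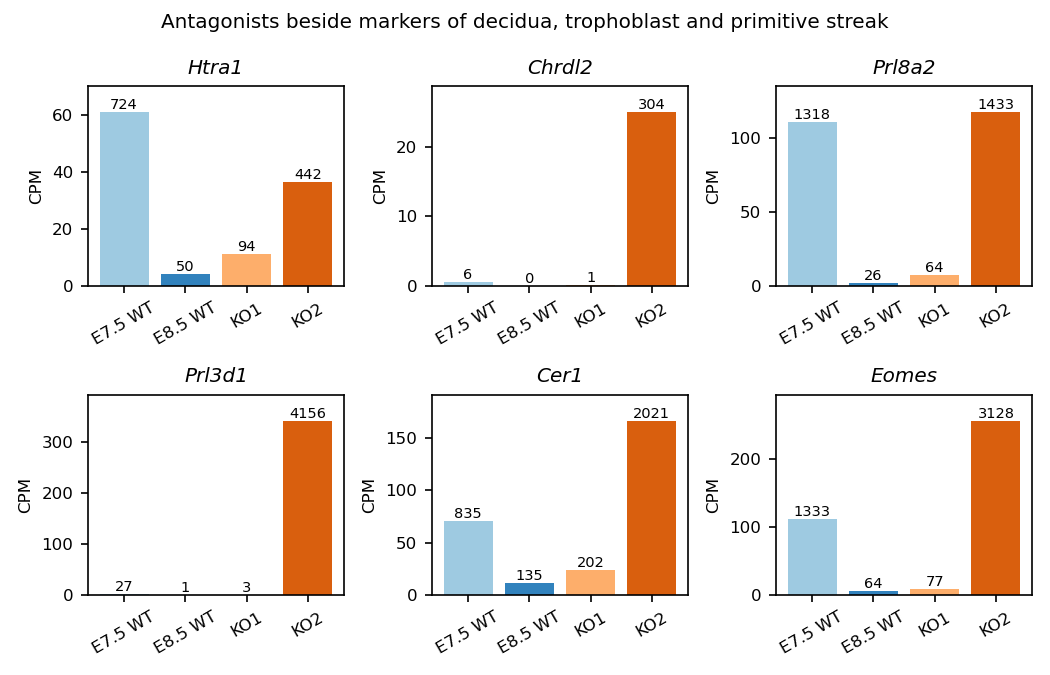
Level in CPM (linear axis from 0, scaled per panel) of Htra1, Chrdl2 and Cer1 beside the decidual gene Prl8a2, the trophoblast gene Prl3d1 and the streak gene Eomes, 1 bar per library with its read count above. Htra1 was highest in E7.5 wild type and KO2, the libraries with most Prl8a2 reads (1318 and 1433), Chrdl2 and Prl3d1 were both concentrated in KO2, and Cer1 and Eomes both had their highest levels in KO2 and then E7.5 wild type.

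Nbl1 encodes DAN, the founding member of the family that also holds Cer1 and Grem1. It had 90 reads in E7.5 wild type, 51 in E8.5 wild type, 77 in KO1 and 248 in KO2, at 7.57, 4.15, 9.17 and 20.4 CPM. KO1 stood close to E7.5 wild type, and KO2 above both stages. The changes from E8.5 wild type were 1.11 (0.61 to 1.68) in KO1 and 2.25 (1.85 to 2.76) in KO2. KO1 differed from E7.5 wild type by 0.27, with an interval of -0.18 to 0.73 that includes 0, and KO2 by 1.41 (1.07 to 1.79). Without KO1, Nbl1, Cer1 and Chrdl2 joined Bmper above both wild-type libraries, 4 of 9 against 3.67% of all genes in KO2. Of these, Chrdl2 passed the minimum of reads only through KO2, so its call there partly follows from that filter. In KO1 alone Bmper was the only 1, against 1.88%.

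Fst encodes follistatin, which binds activin with high affinity and some BMPs. It had 1358 reads in E7.5 wild type, 749 in E8.5 wild type, 498 in KO1 and 1502 in KO2, at 114, 60.9, 59.3 and 123 CPM. Each KO library sat by a different wild-type stage. KO1 differed from E8.5 wild type by -0.04 (-0.21 to 0.13), while KO2 differed from E7.5 wild type by 0.11 (0.00 to 0.22). The change of KO2 from E8.5 wild type was 1.01 (0.89 to 1.14), which only just passed the threshold. Fst overlaps the gene model Gm47040 on the other strand.

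Nog encodes noggin, which binds BMP2, BMP4 and BMP7 and acts with chordin in the node and notochord. It had 50 reads in E7.5 wild type, 97 in E8.5 wild type, 119 in KO1 and 112 in KO2, at 4.20, 7.89, 14.2 and 9.19 CPM. E7.5 wild type was the lowest library and KO1 the highest. The changes from E8.5 wild type were 0.83 (0.45 to 1.25) in KO1 and 0.22 (-0.19 to 0.63) in KO2, neither past the threshold. Measured from E7.5 wild type, Nog was higher by 1.71 (1.27 to 2.26) and 1.10 (0.64 to 1.64). The level of Nog thus lay above both wild-type stages in both KO libraries, as for Bmper, but past the threshold only against E7.5 wild type. In KO2 the excess of Nog over E8.5 wild type was within counting error. In both KO libraries it was nearer to E8.5 wild type than to E7.5 wild type.

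Grem1 encodes gremlin 1, a BMP antagonist of the later limb bud and somite region. It had 0 reads in E7.5 wild type, 45 in E8.5 wild type, 9 in KO1 and 5 in KO2. The level was highest in E8.5 wild type, at 3.66 CPM, against 1.07 in KO1 and 0.41 in KO2. The changes from E8.5 wild type were -1.62 (-2.99 to -0.72) in KO1 and -2.70 (-4.85 to -1.83) in KO2. With E7.5 wild type at the floor of 3 reads, the level was 4.25-fold higher in KO1 and 1.63-fold higher in KO2. The exact intervals of these changes began at 1.48 in KO1 and -0.16 in KO2 on the log2 scale. The KO2 interval includes 0, so its difference from E7.5 wild type is within counting error. The change from KO1 to KO2 was -1.09, past the threshold, but its interval of -3.31 to 0.35 includes 0, so the difference is within counting error.

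Markers of mesoderm were set beside Grem1. The 10 markers of paraxial and lateral plate mesoderm summed to 165 CPM in E7.5 wild type, 300 in E8.5 wild type, 299 in KO1 and 129 in KO2, and none was at 0. Of the 10, 1 (Tcf15) was lower in KO1 and KO2 than in E8.5 wild type, against 1.79% of all genes. The sum in KO1 was carried by Foxf1 and Hand2, at 86.2 and 73.6 CPM against 72.8 and 44.4 in E8.5 wild type. The changes of Tcf15 (-1.16), Osr1 (-0.83), Isl1 (-0.76), Foxc2 (-0.70) and Foxc1 (-0.61) in KO1 all had intervals below 0, and the median over the 10 was -0.39 in KO1 and -2.05 in KO2. Their part in the Grem1 level was not tested.

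**Figure D3:**
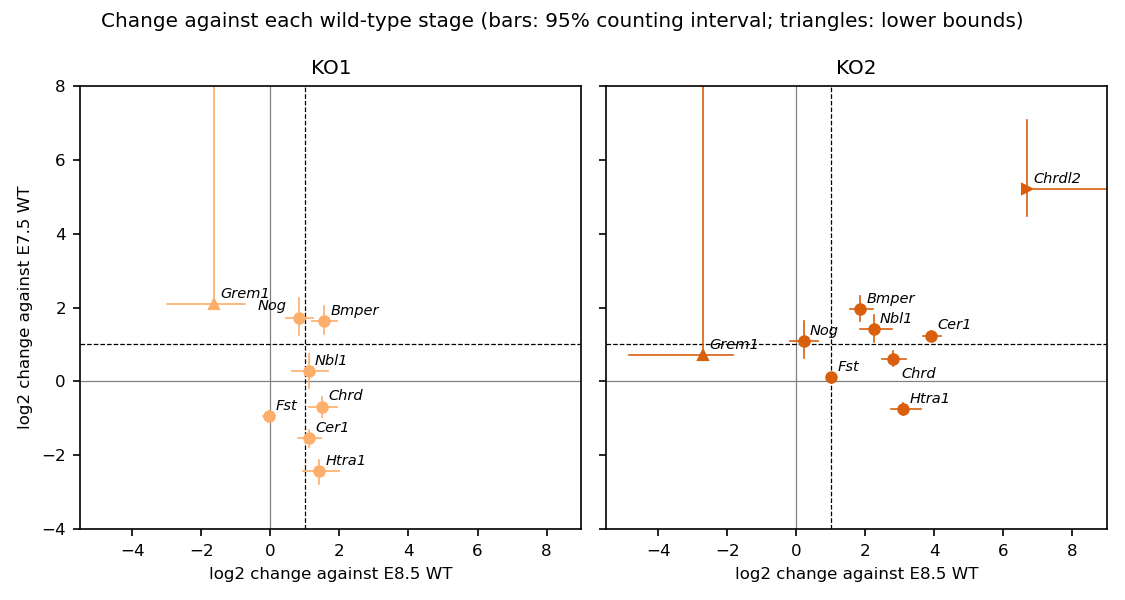
Log2 change of each antagonist against E8.5 wild type (x axis) and E7.5 wild type (y axis) in KO1 (left) and KO2 (right), with exact 95% counting intervals as bars, dashed lines at a change of 1, and triangles for lower bounds against a library with 0 reads. Points above the horizontal and right of the vertical dashed line exceeded both wild-type stages, Bmper alone in KO1 and Bmper, Nbl1, Cer1 and Chrdl2 in KO2, and Chrdl2 is left out of the KO1 panel because it had 1 read there.

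The KO libraries differed for most of the antagonists. KO2 was higher than KO1 in 6 of 9 (Cer1, Chrd, Chrdl2, Htra1, Fst and Nbl1), against 5.99% of all genes, and lower in 1 (Grem1, from 5 and 9 reads and within counting error), against 4.89%. In KO1 alone, the same 5 of 9 as in both KO libraries were higher than E8.5 wild type, against 4.97%. In KO2 the number was 7 of 9, with Chrdl2 and Fst added, against 9.41%. Chrdl2 passed the minimum of reads only through KO2, so its calls above KO1 and above E8.5 wild type partly follow from that filter. The median change of the members against E8.5 wild type was 1.11 in KO1, over the 8 members above the floor, and 2.25 in KO2, where the medians of all genes were -0.01 and 0.00. Against E7.5 wild type, with Grem1 at its lower bound, the members' medians were -0.68 in KO1 and 1.10 in KO2, where the medians of all genes were 0.02 and 0.07. Both sets of changes share the KO libraries, and the changes of KO1 and KO2 share each wild-type library.

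Markers of tissues that make Cer1 and Chrd were set beside them. The 8 markers of anterior visceral and definitive endoderm summed to 225 CPM in E7.5 wild type, 164 in E8.5 wild type, 201 in KO1 and 457 in KO2, and none was at 0. In KO2, 4 of them (Lhx1, Dkk1, Otx2 and Gsc) were higher than in E8.5 wild type, against 9.41% of all genes. In KO1 the number was 0, against 4.97%. Lhx1 had 296, 202, 150 and 1156 reads in E7.5 wild type, E8.5 wild type, KO1 and KO2, and Otx2 had 828, 703, 510 and 2059. The 6 general visceral endoderm markers summed to 4280, 4869, 2490 and 2368 CPM in E7.5 wild type, E8.5 wild type, KO1 and KO2 and none at 0. Of these, 2 (Apoa1 and Rbp4) were lower in KO1 and KO2 than in E8.5 wild type, against 1.79% of all genes, and DESeq2 called 4 of 6 (Apoa1, Apob, Ttr and Rbp4), against 0.288%. The 5 primitive streak markers summed to 206, 62.5, 54.2 and 376 CPM, with Eomes at 1333, 64, 77 and 3128 reads. Node and notochord markers (T, Noto, Shh and Foxj1) summed to 390, 102, 151 and 180 CPM in the order E7.5 wild type, E8.5 wild type, KO1 and KO2. T made up most of that sum, with 325 CPM in E7.5 wild type. Noto had 8.66, 4.31, 5.48 and 8.78 CPM, and Foxj1, with 55.6, 5.45, 27.7 and 46.6 CPM, was higher in KO1 and KO2 than in E8.5 wild type (1 of the 4, against 3.44% of all genes). Shh had 0.84, 16.3, 19.3 and 2.30 CPM. The part of these tissues in the levels of Cer1 and Chrd was not tested.

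Levels can be compared between genes only per length, here as reads per length of annotated exon (RPKM). Cer1 was the most abundant antagonist in E7.5 wild type (40.4 RPKM), before Fst (24.9) and Htra1 (21.1). In E8.5 wild type the order was led by Fst (13.3), followed by Cer1 (6.32) and Nog (4.66). KO1 had Cer1 (13.8) and Fst (12.9) first, and then Nog (8.36). In KO2, Cer1 reached 95.4 RPKM, ahead of Fst (26.9), Htra1 and then Nbl1 (10.01). The level of Bmper per length was 1.55 in E7.5 wild type, 1.65 in E8.5 wild type, 4.90 in KO1 and 6.08 in KO2.

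In tests with a p-value, the spread came from at most 2 libraries a side. Comparing KO1 and KO2 with E8.5 wild type, the edgeR quasi-likelihood test called 0 genes (0%) after Benjamini-Hochberg adjustment, while 1039 had an unadjusted p under 0.05. Among the latter were 5 antagonists, Bmper, Chrd, Grem1, Htra1 and Nbl1, each with an adjusted p of 0.669 in edgeR. DESeq2 called 35 genes in this comparison (0.288% of those with an adjusted p), none of them a member. With both wild-type libraries as 1 group, edgeR again called 0 genes (0%), and 565 had p below 0.05 before adjustment. The edgeR result for Bmper there was an adjusted p of 0.900, a log2 change of 1.78, higher in 2 of 2 KO libraries, and DESeq2 gave it an adjusted p of 0.00437. DESeq2 called 32 genes (0.222%), and Bmper was the only antagonist among them. Leaving out each library in turn, the adjusted p of Bmper in edgeR ranged from 0.129 to 1. Nothing in the labels says how the embryos of the KO libraries were drawn from litters, so p-values measure only the spread between these samples.

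Other parts of the BMP pathway are given from lists of genes to set the antagonists in place. Of 11 other secreted antagonists, 9 passed the minimum of reads, and 0 of them were lower in KO1 and KO2 than in E8.5 wild type, against 1.79% of all genes. From so few genes, 0 is near that share. Chrdl1, a relative of Chrdl2, had 29 reads in E7.5 wild type, 233 in E8.5 wild type, 99 in KO1 and 66 in KO2, with changes of -0.68 (-1.04 to -0.34) and -1.77 (-2.22 to -1.41) from E8.5 wild type. The follistatin relative Fstl3 had 186, 34, 12 and 130 reads, high in E7.5 wild type and KO2 and low in the other libraries. Of the 4 genes that process or present chordin, 0 passed in both KO libraries, against 3.44% of all genes higher and 1.79% lower. Twsg1, which forms a complex with chordin and BMP, had 753, 1467, 1230 and 1754 reads.

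Few ligands, receptors and SMADs met the rule. Of 9 BMP ligand genes tested, 1 was higher in both KO libraries, against 3.44% of all genes. It was Bmp8a, which had 32 reads in E7.5 wild type, 2 in E8.5 wild type, 9 in KO1 and 15 in KO2. The main embryonic ligands did not pass, with Bmp4 at 472, 501, 545 and 383 reads and Bmp2 at 484, 450, 397 and 650. Of 7 receptor genes and 4 SMAD genes, 0 were higher and 0 lower in both KO libraries, against 3.44% and 1.79% of all genes. Their median changes against E8.5 wild type were -0.10 (KO1) and -0.24 (KO2) for receptors and 0.01 and 0.02 for SMADs.

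Transcripts that respond to BMP signals did not pass the threshold in both KO libraries for any of the 9 tested, against 3.44% of all genes higher and 1.79% lower. Their median change against E8.5 wild type was 0.36 in KO1 and 0.18 in KO2. Id1, a direct SMAD target, had 90.4, 85.8, 101 and 104 CPM in E7.5 wild type, E8.5 wild type, KO1 and KO2. Id2 was lower in KO2, with 604 reads and a change of -1.26 (-1.40 to -1.12), but not past the threshold in KO1 (-0.21, -0.33 to -0.09). Id2 was the only response gene with intervals below 0 against both wild-type libraries in both KO libraries. In 4 of the 9 (Id1, Id3, Id4 and Smad6) these intervals all lay above 0, against 5.41% of all genes. The changes of Id4 against E8.5 wild type were 0.70 and 0.73. Whole-embryo levels do not show where in the embryo an antagonist or a target was read. Nodal, which Cer1 also binds, had 50 reads in E7.5 wild type, 23 in E8.5 wild type, 37 in KO1 and 155 in KO2. Its changes against E8.5 wild type were 1.16 (0.45 to 2.05) and 2.65 (2.13 to 3.46), and it was the 1 of 3 tested Nodal and activin ligands higher in both KO libraries, against 3.44% of all genes.

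**Figure D4:**
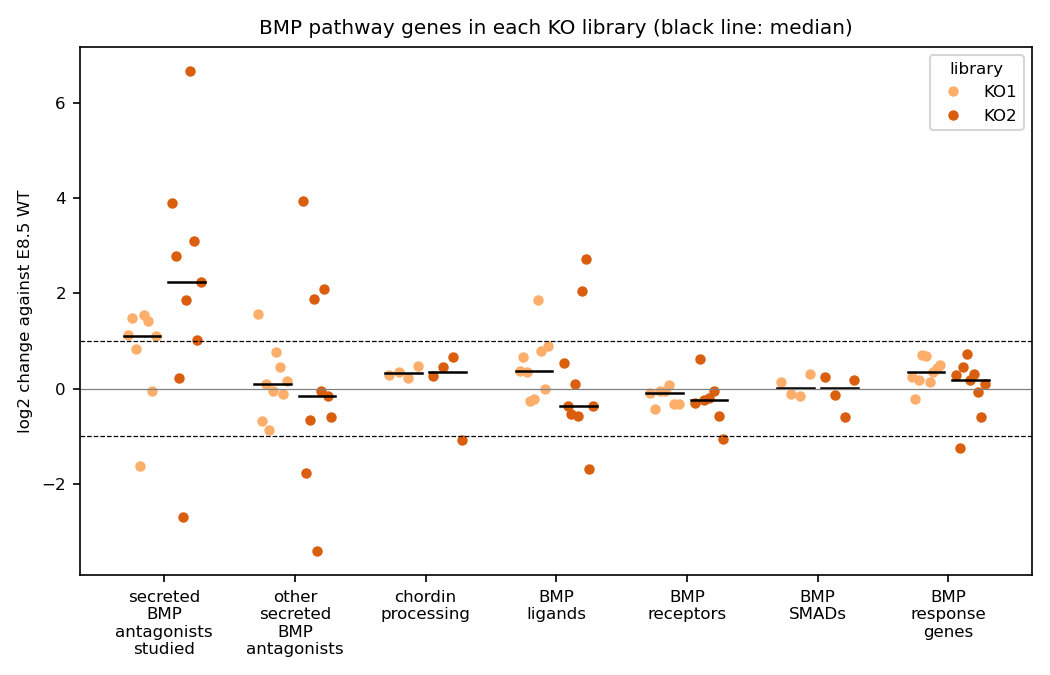
Log2 change against E8.5 wild type of each tested gene of the BMP pathway in KO1 and KO2, 1 point per gene and library, grouped by role, with a black line at the median and dashed lines at changes of 1 and -1. The antagonists studied had medians of 1.11 and 2.25, whereas the medians of the other lists lay between -0.36 and 0.37. Genes with at most 3 reads in both libraries are left out, and Chrdl2 in KO2 is drawn with E8.5 wild type at the floor of 3 reads.

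DDX6 acts with microRNA complexes, so 3′ UTRs of the antagonists were searched for seed matches to miRNA families of early embryos. The mature miRNAs with a match and the embryonic stem cell miRNA miR-291a-3p are shown, from RefSeq (GRCm38.p6), with the seed in capitals.
mmu-miR-200b-3p: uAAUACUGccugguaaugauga
mmu-miR-17-5p: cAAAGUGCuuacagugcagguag
mmu-miR-291a-3p: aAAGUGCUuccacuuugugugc

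The reverse complement of a seed was sought on the transcript strand of 1 annotated 3′ UTR per gene, that of the principal isoform where annotated and otherwise the longest. The site CAGTATT of miR-200b-3p was in the 3′ UTRs of 3 members, Cer1, Nog and Grem1, and in 15.1% of 13424 tested genes with a 3′ UTR. The site GCACTTT of miR-17-5p was in Nbl1 alone, and in 14.1% of all. The site AGCACTT of miR-291a-3p, which overlaps that of miR-17-5p in GCACTT, was in 0 members and in 16.6% of all. Sites of let-7a-5p (CTACCTC, 10.3%) and miR-130a-3p (TTGCACT, 11.2%) were in 0 members as well.
Cer1 site: aaatacatgaaCAGTATTagagtcacttg
Nog site: tattaaaaggtCAGTATTatacgtcaaaa
Grem1 site: ccacaaacatgCAGTATTgctaaaaataa
Nbl1 site: ccttcccagctGCACTTTaaccctagggc

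The sites lie on GRCm38 at chr4:82881969-82881975 (Cer1), chr11:89301077-89301083 (Nog), chr2:113747394-113747400 (Grem1) and chr4:139082495-139082501 (Nbl1), all on the minus strand. The members that share the miR-200b-3p site had different patterns across the libraries, with Cer1 highest in KO2, Nog highest in KO1 and Grem1 highest in E8.5 wild type. Bmper, with a 3′ UTR of 1168 bases, held no site of the 5 families, and neither did Chrd, Htra1, Fst or Chrdl2. A missing match says only that these letters were not in this UTR.

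Genes with the most similar pattern to each antagonist were found by the Euclidean distance over 3 log2 changes, those of E7.5 wild type, KO1 and KO2 against E8.5 wild type. There were 11221 other genes with a mean of at least 50 reads, and Grem1 was left out for its low count. The nearest to Bmper were Asb4 (distance 0.27), Fam219a (0.36) and Cfc1 (0.36), and 4 genes lay within 0.5. Cfc1, a co-receptor of Nodal, had 151, 159, 383 and 486 reads in E7.5 wild type, E8.5 wild type, KO1 and KO2. Nearest to Chrd were Elavl3, Serpinb6b and Hspb1 (0.27 to 0.36), and nearest to Cer1 were Mgll, Srgn and Bcl11a (0.45 to 0.47). Htra1 and Chrdl2 had no gene within 0.5, and their nearest were S100a6 (0.57) and Trpv2 (1.31). Nog and Fst had common patterns, with 117 and 111 genes within 0.5, and Nbl1 had 12. The distances rest on 4 libraries and describe only those.

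On GRCm38 the members lie at chr4:82881751-82885148 (Cer1), chr16:20733127-20742384 (Chrd), chr11:89300638-89302332 (Nog), chr2:113746164-113758646 (Grem1), chr9:23223076-23485200 (Bmper), chr7:100006172-100034728 (Chrdl2), chr7:130936111-130985660 (Htra1), chr13:114452290-114458951 (Fst) and chr4:139082284-139092993 (Nbl1). No member shares an exon with another gene on its own strand.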

How the data were processed

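RNA of whole embryos was sequenced with a stranded mRNA kit in 4 libraries. Per the labels and methods, the authors trimmed reads with Cutadapt 2.8, aligned them to mm10 with HISAT2 2.1.0, processed them with SAMtools 1.9 and counted them over exons by strand with featureCounts 2.0.0. The authors deposited raw counts per gene with no normalization. TMM factors were computed on all 24421 genes (edgeR 4.0.16, R 4.3.3), and the 14393 genes that reached 10 counts in any library were tested. Log2 CPM used a prior count of 2, which shrinks changes of low counts. Calls used a difference past 1, as in the authors' methods. Intervals are exact Clopper-Pearson 95% intervals of the reads of 2 libraries, and the floor was 3 counts. Two-sided edgeR quasi-likelihood tests and, as alternative, DESeq2 1.42.0 used Benjamini-Hochberg adjustment at 0.05, and DESeq2 gave no adjusted p for 2234 genes against E8.5 wild type. Exon lengths, positions and 3′ UTRs came from GENCODE vM21 (GRCm38), with 23376 genes (95.7%) matched by symbol. Promoters were held for 6 of the 9 members. The scripts were tested on simulated data. Members, lists and tests were chosen with earlier results of these data known. Genes named are the members, Ddx6, genes of the lists that met a call rule or define their list, and the 3 genes nearest to each member. Fstl3, Chrdl1, Twsg1, Bmp2, Bmp4, Id1, Id2, Lhx1, Tcf15, Foxf1, Hand2, Osr1, Isl1, Foxc1, Foxc2, Noto and Shh were picked from the lists after their values were seen. So were Hoxa10, Hoxa11, Igfbp1, Pgr, Id3, Id4, Smad6, Ascl2 and Plac1. The value of a gene of the lists that met a call rule is not reported here.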

Additional observations from a re-analysis of the deposited data

How the results depend on the processing

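DESeq2 size factors, plain CPM, no filter and a minimum of 50 counts left Cer1, Chrd, Bmper, Htra1 and Nbl1 as the antagonists higher in both KO libraries and Bmper as the only 1 above both wild-type libraries. A prior count of 0.5 added Chrdl2 to the former, making 6, and moved the mean change of Grem1 against E7.5 wild type from 2.26 to 3.996, where E7.5 wild type had 0 reads. With a threshold of 1.5, 1 antagonist (Bmper) was higher in both KO libraries, and 3 in place of 7 (Grem1 within counting error) differed between them. The share of all genes past 1.5 was not counted, so these 2 numbers have no background. Leaving out a KO library gave 1 (without KO2) to 4 (without KO1) antagonists above both wild-type libraries and 5 to 7 higher than E8.5 wild type. The 4 and the 7 include Chrdl2, which passed the minimum of reads only through KO2. The change of Chrdl2 against E7.5 wild type was 5.20 without KO1 and reversed to -1.20 without KO2, from 1 read in KO1. Calls over all genes, 0 in edgeR, were 35 against E8.5 wild type and 32 against both stages with DESeq2, and 7 against E8.5 wild type with no filter. Leaving out a library gave 0 to 51 calls against both stages, with 51 without KO1 and 1 without KO2, where the spread came from the wild-type libraries alone and the lone KO library was assumed to vary like them. The causes were not tested. Of 164 results under an alternative, 154 moved by less than 1 SD over KO1 and KO2 (counts by less than 1.5 times), which leaving out a KO library does to a mean change by construction. Mean changes still crossed 0 or the threshold. Against E7.5 wild type, Cer1 went from -0.15 to 1.24 without KO1 and -1.54 without KO2, Chrd from -0.04 to 0.61 and -0.68, Fst from -0.42 to 0.11 and -0.94, and Nbl1 from 0.84 to 1.41 and 0.27. Against E8.5 wild type, Fst went from 0.49 to 1.01 and -0.04. No paired analysis was possible because the wild-type and KO groups share fewer than 2 replicate numbers. Depth limits Grem1 and Chrdl2 most, since a count of 0 allows a level of up to 0.25 CPM in E7.5 wild type and 0.24 CPM in E8.5 wild type.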
